A study of Mus musculus with 10 samples.

Results

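The SNARE and syntaxin-binding genes were taken by gene name from an RNA-seq table of 16936 protein-coding genes of cultured mouse macrophages. All genes whose name starts with Stx, Stxbp, Vamp or Snap and a digit, or with Vti1, were members, which gave 35 genes. The cells were bone marrow-derived macrophages. Marrow had been kept for 7 days in 50 ng/mL of GM-CSF, a cytokine that gives cells with macrophage and dendritic cell features. In 5 samples the cells were left untreated, and in the other 5 PLG was present for 24 h. The design text of the series names this agent as human plasminogen. GM-CSF was shared by both groups. Mouse strain, age and the origin of the replicates were not given in the labels, so the p-values rest on differences among these samples alone, and those may be technical. The comparison addresses the response to PLG. No sample lacks the receptor Tlr2 of the series' title, and no control preparation is named, so effects of plasminogen cannot be told apart from those of other material added with it.

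SNARE proteins are the engines of membrane fusion. A VAMP on a vesicle zips together with a syntaxin and a SNAP-25 type protein, or with a syntaxin and further Q-SNAREs, on the target membrane, and the helices that form pull the membranes into contact. Sec1/Munc18 proteins, among them Stxbp2 and Stxbp3, clasp syntaxins and guide the assembly. Tomosyn (Stxbp5) and amisyn (Stxbp6) carry a VAMP-like helix without a membrane anchor and can occupy syntaxins. In macrophages SNAREs carry cytokines such as TNF to the surface through the Golgi and recycling endosomes, feed membrane to phagosomes and fuse endosomes and autophagosomes with lysosomes.

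A level of 1 FPKM or more in 5 or more of the 10 samples was required for testing. Of the 35 genes 27 met this filter and 8 lay under it. FPKM, the authors' unit, scales reads by gene length and by sequencing depth. For all 35 members that length was that of all annotated exons together, which need not be the form expressed. Orders, ratios and shares between genes are therefore given in FPKM, and may differ from those of RNA molecules. With limma on log2(FPKM + 1) and Benjamini-Hochberg adjustment over all 9997 tested genes, 11 members were higher with PLG and 10 lower, which is 77.8% of the 27. In the same fit 60.4% of all tested genes passed, 29.1% as higher and 31.3% as lower, so a call alone is no mark of these genes. The median log2 fold change was -0.01 over the 27 members and -0.02 over all tested genes. The groups did not overlap for 17 members, 8 higher and 9 lower. That was so for 47.2% of all tested genes, 22.7% higher and 24.5% lower. By a fold of 2 or more 2 members rose, Stx11 and Stxbp6, and 1 fell, Snap29. Stxbp6 was tested only because its PLG samples passed the filter, so its count as higher is no support. Over all tested genes 8.35% rose and 5.67% fell by that much. The summed FPKM of the 35 genes was 399 ± 10.5 (SD, n = 5) untreated and 389 ± 13.9 with PLG, and the ranges overlapped.

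**Figure D1:**
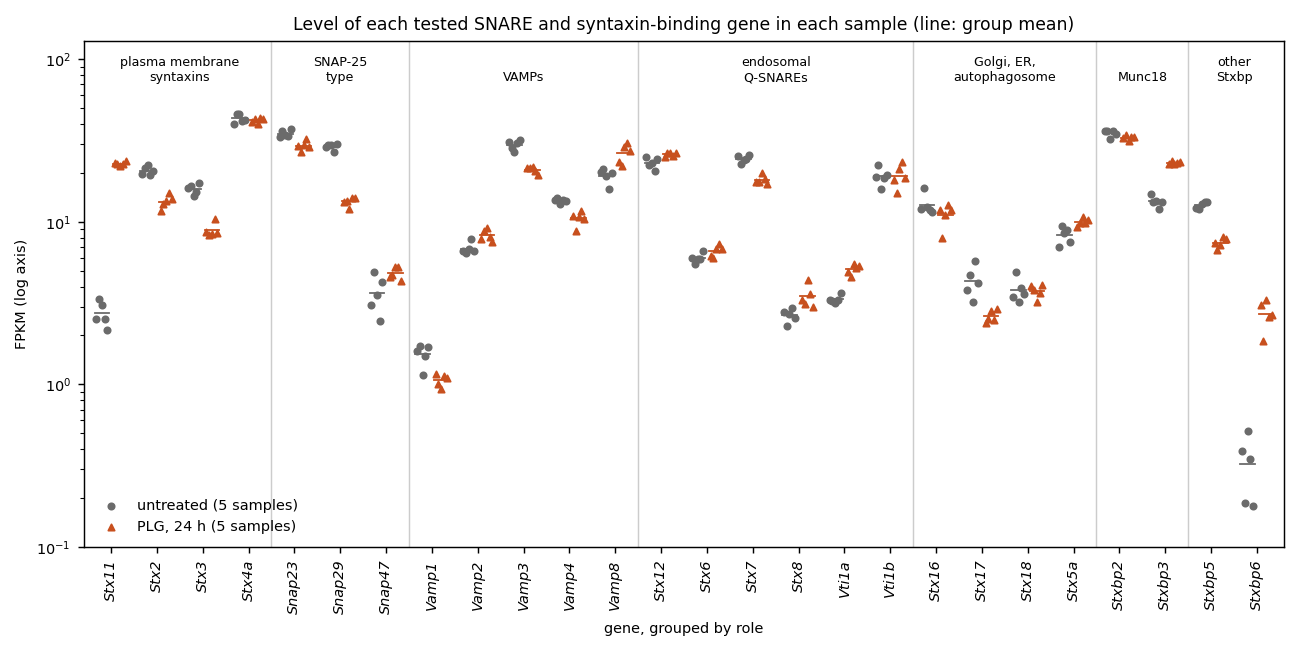
FPKM on a log axis of 26 of the 27 tested genes in each of the 10 samples, grouped by the step the proteins serve. Circles are untreated and triangles PLG samples, and lines mark group means. Stx11 and Stxbp6 lie lowest in their classes in untreated samples and stand apart with PLG, while the groups of Stx4a, Stxbp2 and Vti1b overlap.

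The start regions of the 3 genes that passed a fold of 2 are shown because these genes carry the largest changes. Each is the 250 bases before the RefSeq start, on the gene's strand and on build GRCm38.p6. Capitals mark matches to an NF-kB-like pattern, GGG and CC with any 5 bases between them, and to a GC box, GGGCGG, on either strand. The windows are chr10:12964260-12964509 on the minus strand for Stx11, chr12:45074484-45074733 on the minus strand for Stxbp6 and chr16:17405750-17405999 on the plus strand for Snap29. In the positions deposited with the FPKM these genes begin inside the windows, at 12964298 for Stx11, 45074709 for Stxbp6 and 17405986 for Snap29. Most of the Stxbp6 window, with its NF-kB-like matches, thus lies within the span of that gene.
Stx11: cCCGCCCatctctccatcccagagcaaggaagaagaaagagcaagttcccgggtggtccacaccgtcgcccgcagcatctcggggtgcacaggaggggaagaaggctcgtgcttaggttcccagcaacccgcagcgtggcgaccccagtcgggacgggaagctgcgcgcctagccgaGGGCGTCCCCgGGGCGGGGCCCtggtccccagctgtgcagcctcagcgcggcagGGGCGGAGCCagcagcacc
Stxbp6: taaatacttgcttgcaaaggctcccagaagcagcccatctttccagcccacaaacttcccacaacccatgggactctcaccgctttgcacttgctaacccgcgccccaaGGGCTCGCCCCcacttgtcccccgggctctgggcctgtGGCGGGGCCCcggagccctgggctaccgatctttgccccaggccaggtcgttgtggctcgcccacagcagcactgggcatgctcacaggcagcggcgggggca
Snap29: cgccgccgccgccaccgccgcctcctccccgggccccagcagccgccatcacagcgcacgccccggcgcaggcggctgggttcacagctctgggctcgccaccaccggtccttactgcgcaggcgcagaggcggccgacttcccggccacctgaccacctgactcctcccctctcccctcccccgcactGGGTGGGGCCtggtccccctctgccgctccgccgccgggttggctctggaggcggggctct
The patterns overlap in part of these matches. The NF-kB-like pattern was found in all 3 windows, including that of Snap29, which fell. It occurs in 48.7% of the 27025 genes with a RefSeq window and in 20 of the 30 members that have one. GGGCGG occurs in 35.4% of all genes and in 20 of the 30 members, among these 3 only in Stx11. An IRF-like pattern, GAAA repeated after any 2 bases, was found in Vamp1 alone of the 30 members and in 3.46% of all genes. TGANTCA, the AP-1 pattern, was found in 0 members and in 7.82% of all genes. GAGGAA, a core that PU.1 binds, was found in Stx16, Stx1a, Stx7 and Vamp4 and in 25.9% of all genes. TATAAA was found in Stx2 and Stx3 and in 14.3% of all genes. These are letter matches only. G and C made up 65.2% of the window of Stxbp6 and 76.8% of that of Snap29, with Stx11 between them. The median was 61.2% over the 35 windows of members and 52.4% over all 32851 windows. The part of this difference in the pattern counts was not tested.

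Among the syntaxins of the plasma membrane, Stx11 rose with PLG while Stx2 and Stx3 fell. Stx11 (ENSMUSG00000039232.12) has no membrane-spanning anchor and is known for the release of lytic granules by human lymphocytes. Its level was 2.54, 3.36, 3.06, 2.54 and 2.17 FPKM in the untreated samples and 23.1, 22.5, 21.9, 22.6 and 23.6 FPKM with PLG. Every PLG sample lay far above every untreated sample, and the PLG samples lay close together. The ratio of the means was 8.32 and the log2 fold change 2.68 (SE 0.082, limma adjusted p = 7.61e-12). Stx3, which serves the exocytosis of granules in several cell types, was at 16.1, 16.5, 14.3, 15.2 and 17.4 FPKM untreated and at 8.69, 8.30, 8.47, 10.4 and 8.55 FPKM with PLG. Its groups did not overlap, and PLG 4 was the highest of the PLG samples (log2 fold change -0.78, SE 0.071, limma adjusted p = 4.48e-07). Stx2 went from 20.6 ± 1.21 to 13.3 ± 1.20 FPKM (SD, n = 5 per group), also without overlap (log2 fold change -0.60, limma adjusted p = 3.07e-06).

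Stx4a, the partner of Snap23 in surface fusion and in TNF release by mouse macrophages, was the member highest in FPKM in both groups. Its level was 43.3 ± 2.60 FPKM untreated and 42.1 ± 1.41 FPKM with PLG, and the difference missed the threshold (log2 fold change -0.04, 95% interval -0.14 to 0.07, limma adjusted p = 0.542). Its direction turned with common-sum scaling (0.011) and median-of-ratios scaling (0.0040), and with quantile normalization it passed as lower (-0.18, adjusted p = 0.0073, 0.0073 to 0.953 over its alternatives). Within the summed FPKM of the 7 syntaxins of this class, the share of Stx11 was 2.62% to 3.84% in untreated samples and 24.6% to 27.0% with PLG. The share of Stx2 was 24.4% to 25.9% and then 13.7% to 16.3%. The share of Stx3 was 16.7% to 21.1% and then 9.56% to 11.3%, and that of Stx4a 51.2% to 53.4% and then 47.4% to 49.4%. The class sum itself was 82.8 ± 3.91 FPKM untreated and 87.5 ± 2.99 FPKM with PLG, with overlapping ranges. Stx1a, a syntaxin of synapses, and Stx19 lay under the filter.

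**Figure D2:**
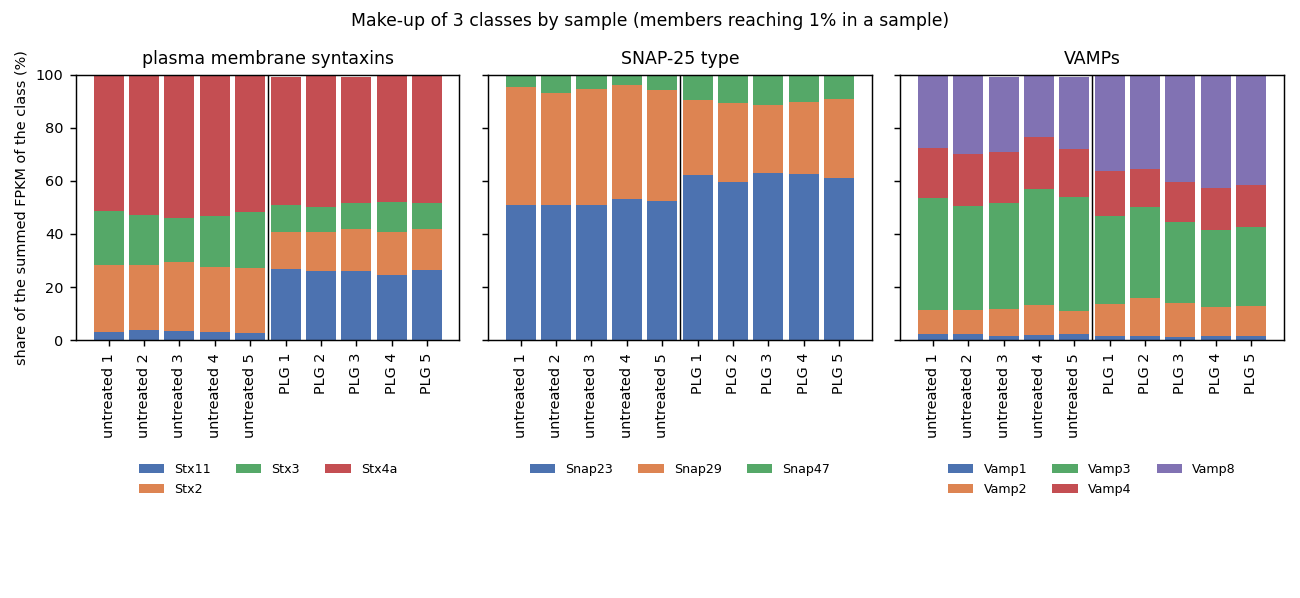
Share of each gene in the summed FPKM of its class, in percent, for each of the 10 samples, for members that reach 1% in a sample. The vertical line in each panel divides untreated from PLG samples. Stx11 widens from at most 3.84% to at least 24.6% of its class, Snap29 narrows, and Vamp8 overtakes Vamp3.

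The SNAP-25 type proteins, which give a pair of helices to the fusion bundle, fell in their main forms. Snap29 has no lipid anchor and is known for the fusion of autophagosomes with lysosomes. It was at 28.9, 29.8, 29.5, 27.0 and 29.9 FPKM untreated and at 13.3, 13.5, 12.1, 13.9 and 14.0 FPKM with PLG. The highest PLG sample lay far below the lowest untreated sample, and the ratio of the means was 0.460 (log2 fold change -1.07, SE 0.053, limma adjusted p = 8.32e-10). Its exons share 60 bases, 1.74% of their length, with Pi4ka on the other strand, a gene that went from 32.5 ± 2.45 to 18.6 ± 0.883 FPKM. Whether counting used strand is not given in the sources used here, and the part of such shared reads was not tested.

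Snap23, the form found in most tissues, fell by less, from 34.8 ± 1.81 to 29.3 ± 1.87 FPKM, with groups that did not overlap (log2 fold change -0.24, limma adjusted p = 0.00178). With common-sum scaling it did not pass (adjusted p = 0.203, 9.06e-06 to 0.203 over its alternatives). The ratio of Snap23 to Snap29 was 1.146 to 1.249 in untreated samples and 1.98 to 2.45 with PLG. Snap47, a wider relative without a membrane anchor, was at 3.08, 4.90, 3.55, 2.46 and 4.27 FPKM untreated and at 4.57, 4.71, 5.30, 5.29 and 4.35 FPKM with PLG. The groups overlapped through untreated 2. It passed as higher (log2 fold change 0.35, SE 0.127, limma adjusted p = 0.0293), but not without untreated 1 (0.0683), untreated 4 (0.0683), PLG 3 (0.065) or PLG 4 (0.065). Nor did it pass with common-sum scaling, with the repeat-like level as a covariate or with no filter (adjusted p 0.00452 to 0.0994 over its alternatives). Its exons share 307 bases, 11.6% of their length, with Jmjd4 on the other strand, which was at 1.49 ± 0.368 FPKM untreated and 1.35 ± 0.145 FPKM with PLG. Snap25, the neuronal form, lay under the filter.

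The VAMPs changed in opposite directions, so that Vamp8 and Vamp3 exchanged their order in FPKM. Vamp3, or cellubrevin, sits on recycling endosomes and carries membrane and TNF to the macrophage surface. It was at 30.9, 28.5, 26.9, 30.3 and 31.7 FPKM untreated and at 21.4, 21.3, 21.8, 20.7 and 19.4 FPKM with PLG, without overlap (log2 fold change -0.48, SE 0.055, limma adjusted p = 3.98e-06). Vamp8, or endobrevin, works on late endosomes, lysosomes and secretory granules. It was at 20.1, 21.2, 19.1, 15.9 and 19.9 FPKM untreated and at 23.5, 22.0, 28.7, 30.4 and 27.3 FPKM with PLG. The groups came close at untreated 2 and PLG 2 but did not overlap (log2 fold change 0.43, SE 0.094, limma adjusted p = 0.00127). The ratio of Vamp8 to Vamp3 was below 1 in every untreated sample, at 0.525 to 0.743, and above it in every PLG sample, at 1.03 to 1.47.

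Vamp4, which serves traffic between endosomes and the trans-Golgi network, fell from 13.5 ± 0.463 to 10.5 ± 1.02 FPKM without overlap (log2 fold change -0.34, limma adjusted p = 6.47e-04). With common-sum scaling it missed the threshold (adjusted p = 0.0588, 5.77e-05 to 0.0588 over its alternatives). The synaptobrevins of neurons, Vamp1 and Vamp2, were less abundant and moved apart. Vamp2 rose from 6.84 ± 0.567 to 8.25 ± 0.695 FPKM (log2 fold change 0.24, limma adjusted p = 0.0125). Vamp1 fell from 1.53 ± 0.235 to 1.06 ± 0.0852 FPKM (log2 fold change -0.29, limma adjusted p = 0.0125). The groups overlapped for both. With common-sum scaling neither passed (adjusted p = 0.0512 for Vamp2 and 0.0836 for Vamp1). Nor did they pass without the 3 samples lowest in repeat-like models (adjusted p = 0.106 and 0.0876). The ranges over the alternatives were 0.0044 to 0.106 for Vamp2 and 0.00234 to 0.0876 for Vamp1. Markers fixed for neurons were near 0, with Tubb3, Rbfox3 and Syp summing to 0.016 to 1.21 FPKM untreated and 0.047 to 0.176 FPKM with PLG. Vamp5 lies 4754 bases from Vamp8 on chromosome 6 and stayed under the filter. Vamp7 was not in the deposited table under that name, so the shares of this class leave it out.

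The endosomal Q-SNAREs had close summed levels, 78.6 ± 3.37 FPKM untreated and 78.5 ± 4.97 FPKM with PLG, while single members rose or fell. Stx7, the syntaxin of late endosomes, was at 25.5, 22.7, 24.0, 24.5 and 25.8 FPKM untreated and at 17.6, 17.6, 19.996, 18.2 and 17.1 FPKM with PLG. The groups did not overlap (log2 fold change -0.42, SE 0.055, limma adjusted p = 1.70e-05). Its partner in the late endosomal complex, Stx8, rose from 2.66 ± 0.252 to 3.47 ± 0.553 FPKM (log2 fold change 0.28, limma adjusted p = 0.0189). Without PLG 3, the highest sample, Stx8 missed the threshold (log2 fold change 0.22, adjusted p = 0.0501). It also missed it with the repeat-like level as a covariate (0.061) and without the 3 samples lowest in that level (0.219, with 0.0104 to 0.219 over its alternatives). The ratio of Stx7 to Stx8 was 8.31 to 10.1 in untreated samples and 4.56 to 5.72 with PLG.

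Vti1a, a Q-SNARE of the trans-Golgi network and early endosomes, rose from 3.29, 3.26, 3.18, 3.31 and 3.65 FPKM to 4.88, 4.59, 5.52, 5.18 and 5.33 FPKM. Its groups lay well apart (log2 fold change 0.49, SE 0.071, limma adjusted p = 3.82e-05). Its relative Vti1b, a partner of Stx6, Stx7 and Stx8, was at 19.1 ± 2.24 FPKM untreated and 19.2 ± 3.12 FPKM with PLG, which did not pass (log2 fold change 0.00, 95% interval -0.23 to 0.23, limma adjusted p = 0.979). Of the exon length of Vti1b, 17.7% or 285 bases also belongs to Arg2 on the other strand, which went from 2.36 ± 0.518 to 10.2 ± 0.363 FPKM. What part of the Vti1b level such reads make up was not tested. Stx12, the syntaxin of recycling endosomes, rose from 23.1 ± 1.79 to 26.0 ± 0.726 FPKM (log2 fold change 0.17, limma adjusted p = 0.0173). The gap was narrow, between 25.1 FPKM in untreated 1 and 25.2 FPKM in PLG 1. Stx12 did not pass under 5 alternatives, among them quantile normalization (log2 fold change 0.08, adjusted p = 0.228, 0.00483 to 0.228 over its alternatives). Stx6, which serves transport from the trans-Golgi network, was at 5.99 ± 0.393 FPKM untreated and 6.61 ± 0.535 FPKM with PLG, which did not pass (log2 fold change 0.12, 95% interval -0.03 to 0.27, limma adjusted p = 0.155).

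Of the syntaxins of the early secretory pathway and of autophagosomes, 1 of 4 fell and 1 rose. Stx17, which is recruited to completed autophagosomes, was at 3.79, 4.71, 3.20, 5.71 and 4.20 FPKM untreated and at 2.40, 2.52, 2.82, 2.50 and 2.90 FPKM with PLG. The untreated samples spread widely but all lay above the PLG samples (log2 fold change -0.54, SE 0.114, limma adjusted p = 0.00105). Stx17, Snap29 and Vamp8 form the complex known for fusing autophagosomes with lysosomes. In these samples the first pair fell and Vamp8 rose, and the ratio of Vamp8 to Snap29 went from 0.589 to 0.709 in untreated samples to 1.62 to 2.38 with PLG. Stx5a, the syntaxin of transport between endoplasmic reticulum and Golgi, rose from 8.26 ± 0.997 to 9.98 ± 0.518 FPKM with overlapping groups (log2 fold change 0.25, limma adjusted p = 0.0129). It missed the threshold with common-sum scaling (adjusted p = 0.0588, 0.00473 to 0.0588 over its alternatives).

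Stx16 of the trans-Golgi network was at 11.96, 16.1, 12.3, 11.8 and 11.5 FPKM untreated and at 11.8, 7.96, 11.04, 12.6 and 11.7 FPKM with PLG. It did not pass (log2 fold change -0.20, 95% interval -0.45 to 0.05, limma adjusted p = 0.157). With the repeat-like level as a covariate it passed as lower (-0.28, adjusted p = 0.0487, 0.0487 to 0.446 over its alternatives). The difference of the means rests on untreated 2 and PLG 2, with the other 8 samples between 11.04 and 12.6 FPKM. Stx18 of the endoplasmic reticulum was at 3.82 ± 0.664 FPKM untreated and 3.75 ± 0.348 FPKM with PLG, which did not pass (log2 fold change -0.01, 95% interval -0.23 to 0.20, limma adjusted p = 0.921). Its exons share 908 bases, 19.8% of their length, with Gm42858 on the other strand, whose level was not analysed here. They also share 574 bases with Nsg1 on that strand, which averaged 0.130 FPKM untreated and 0.044 FPKM with PLG.

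Of the Munc18 proteins, Stxbp3 rose and Stxbp2 did not pass. Stxbp3, or Munc18c, the partner of Stx4, was at 14.9, 13.2, 13.4, 12.01 and 13.2 FPKM untreated and at 22.7, 23.7, 22.8, 23.1 and 23.4 FPKM with PLG. It had the smallest relative spread of the 27 genes in PLG samples, an SD of 1.73% of the mean (log2 fold change 0.75, SE 0.056, limma adjusted p = 4.68e-08). The groups did not overlap.

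Stxbp2, or Munc18-2, the partner of Stx11 and Stx3, stood above Stxbp3 in FPKM in both groups. It was at 35.1 ± 1.60 FPKM untreated and 32.9 ± 0.992 FPKM with PLG, which did not pass (log2 fold change -0.09, 95% interval -0.19 to 0.01, limma adjusted p = 0.114). It passed as lower without untreated 3 (-0.12, adjusted p = 0.0412). So it did with quantile normalization (-0.20) and with the repeat-like models removed and scaling to a common sum (-0.14), with 0.00214 to 0.787 over its alternatives. The ratio of Stxbp2 to Stxbp3 was 2.43 to 3.01 in untreated samples and 1.37 to 1.44 with PLG.

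The anchorless inhibitors changed in opposite directions. Stxbp5, or tomosyn, was at 12.2, 11.9, 12.8, 13.2 and 13.2 FPKM untreated and at 7.37, 6.67, 7.18, 8.05 and 7.80 FPKM with PLG. The groups were far from touching (log2 fold change -0.70, SE 0.062, limma adjusted p = 2.97e-07). Stxbp6, or amisyn, was at 0.387, 0.186, 0.514, 0.348 and 0.179 FPKM untreated and at 3.06, 1.84, 3.32, 2.59 and 2.67 FPKM with PLG. It passed the filter only through the PLG samples, so that a difference was built into its being tested. The recovered reads were 315 over the untreated and 3461 over the PLG libraries. The ratio of the means was 8.35, and the log2 fold change was 1.47 (SE 0.121), given as a description. Because the level is low this value hangs on the added 1: it was 2.77 with 0.1 added and 0.53 with 5 added, and 3.12 in voom on the reads. Stxbp4, or synip, and Stxbp5l, the second tomosyn, lay under the filter.

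**Figure D3:**
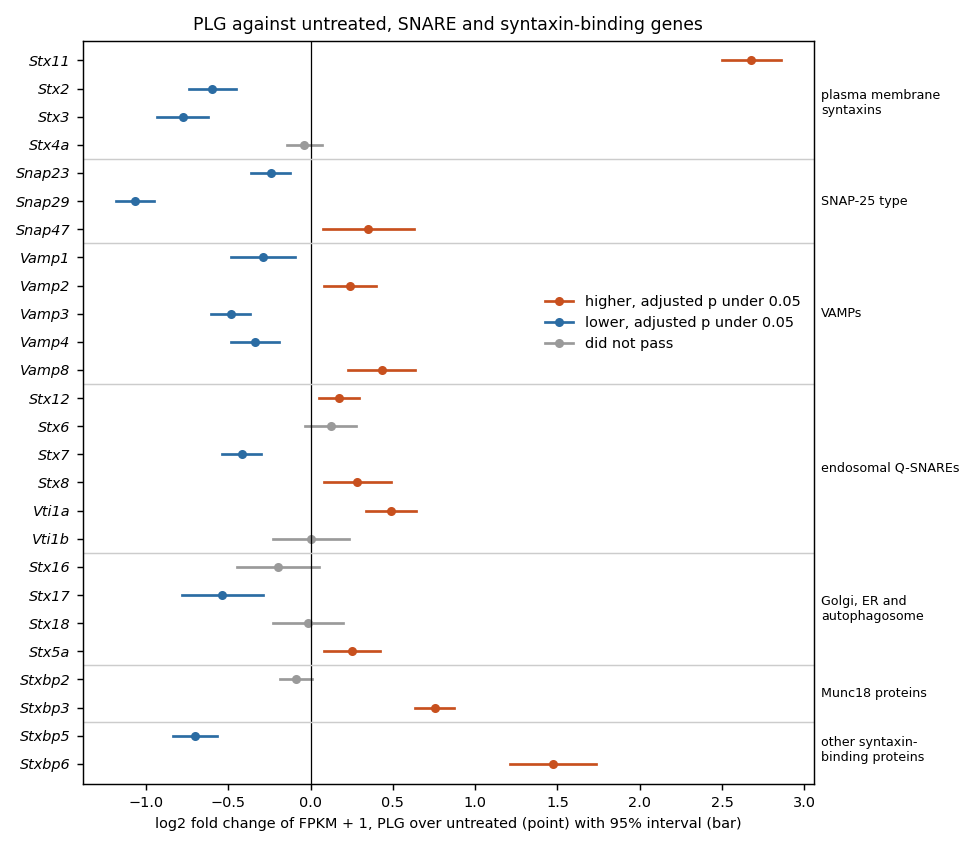
Log2 fold change of FPKM + 1, PLG over untreated, for 26 of the 27 tested genes, as points with 95% intervals as bars from the limma fit, grouped by class. Orange genes were higher, blue genes lower and grey genes did not pass at an adjusted p of 0.05. Stx11 and Stxbp6 lie farthest to the right and Snap29 farthest to the left.

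The members under the filter were low in level. Over the 5 untreated and the 5 PLG libraries, Snap91 had 1 and 31 reads, Stxbp5l 5 and 21, Snap25 21 and 38, Stx1a 25 and 74, and Stx19 50 and 66. Snap91, matched by its name, encodes a clathrin adaptor and no SNARE. Vamp5 had 206 reads untreated and 101 with PLG, Stxbp4 1246 and 1168. For these 7 genes the adjusted p in limma without a filter was 0.125 or more.

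Levels in FPKM among the members also had an order that PLG changed. In untreated samples Stx4a stood first, followed by Stxbp2 and Snap23, whose ranges overlapped, and then by Vamp3 and Snap29, whose ranges overlapped as well. With PLG Stx4a and Stxbp2 stayed first and second. Snap23, Vamp8 and Stx12 followed. Snap23 overlapped both Stxbp2 and Vamp8 in range, and Vamp8 overlapped Stx12. Stxbp3 and Stx11, with overlapping ranges, came next, ahead of Vamp3. Snap29, at rank 5 in untreated samples, overlapped Stx2 in range with PLG, at 12.1 to 13.99 FPKM against 11.7 to 14.97 FPKM. The spread between replicates was moderate, with a median SD of 7.75% of the mean in untreated and 8.01% in PLG samples over the 27 genes. Among PLG samples, PLG 2 was the lowest for 10 of the 27 genes and PLG 4 for 0. Leaving out PLG 2 changed no call among them.

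The wider fusion machinery was described through a list of 76 genes, of which 70 were in the table and 43 were tested. Of these 14 were higher and 16 lower with PLG, 69.8% against 60.4% of all tested genes. The 14 include Rab27a and Txlnb, whose PLG samples alone met the filter and whose counts as higher are no support. The other SNAREs, outside the name rule, numbered 10, of which 6 were higher, 1 was lower and 3 did not pass. Of all tested genes 29.1% were higher. The difference in share was not tested. Among them were genes of transport between endoplasmic reticulum and Golgi. Gosr2 went from 24.9 ± 2.97 to 42.9 ± 2.16 FPKM, Sec22b from 10.5 ± 0.653 to 16.6 ± 1.48 FPKM and Ykt6 from 28.3 ± 1.59 to 39.7 ± 2.81 FPKM (limma adjusted p = 7.53e-07, 2.83e-06 and 7.39e-06). Bet1, at 5.34 ± 1.11 FPKM untreated and 6.10 ± 0.960 FPKM with PLG, missed the threshold.

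Tethers hold membranes together before fusion. Their counts stand beside 31.3% lower and 29.1% higher of all tested genes, and the difference in share was not tested. Of the 7 HOPS and CORVET genes, which act on endosomes and lysosomes, 5 were lower and 0 higher. Vps11 went from 21.7 ± 1.38 to 16.4 ± 0.636 FPKM, Vps18 from 40.2 ± 2.104 to 31.0 ± 1.88 FPKM and Vps41 from 14.9 ± 0.482 to 12.3 ± 0.221 FPKM (limma adjusted p = 3.34e-05, 4.76e-05 and 3.92e-04). Vps41 did not pass with common-sum scaling (0.132, with 3.33e-05 to 0.132 over its alternatives), and Vps16, at 12.8 ± 1.15 FPKM untreated and 13.0 ± 0.766 FPKM with PLG, missed the threshold. Vps33a, the Munc18-like partner of these tethers, fell too, from 20.9 ± 2.65 to 12.5 ± 0.359 FPKM (limma adjusted p = 2.50e-06). Another Munc18-like gene, Vps33b, fell from 7.72 ± 1.12 to 4.83 ± 0.208 FPKM (limma adjusted p = 6.62e-05). Vps45, at 5.32 ± 0.385 FPKM untreated and 4.62 ± 0.744 FPKM with PLG, missed the threshold. Of the 9 exocyst genes, which tether vesicles to the plasma membrane, 5 were lower and 2 higher. Exoc5 fell from 7.90 ± 0.824 to 4.97 ± 0.230 FPKM, Exoc4 from 5.30 ± 0.350 to 3.48 ± 0.305 FPKM and Exoc3 from 10.4 ± 0.540 to 7.92 ± 0.499 FPKM (limma adjusted p = 1.42e-05, 6.39e-05 and 2.01e-04). Exoc7, at 7.26 ± 0.513 FPKM untreated and 7.29 ± 1.02 FPKM with PLG, missed the threshold.

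Genes that prime vesicles or sense calcium were measured above the filter in 3 of 28 cases, and all 3 rose. Of all tested genes 29.1% were higher, and the difference in share was not tested. Just under the filter, Syt9 fell from 0.937 ± 0.265 to 0.143 ± 0.0945 FPKM, and Unc13a from 0.892 ± 0.130 to 0.388 ± 0.0513 FPKM (limma adjusted p = 1.18e-04 and 7.17e-05 without a filter). Far lower in level, Cplx2, Syt17 and Syt2 were higher with PLG (limma adjusted p = 0.0134, 0.0055 and 0.0024 without a filter). Their means were 0.001, 0 and 0.0084 FPKM untreated and 0.150, 0.0564 and 0.0752 FPKM with PLG. All of these genes under the filter were named after their values were seen. Syt7, a calcium sensor of lysosome exocytosis, was at 1.41, 1.43, 0.701, 1.19 and 1.09 FPKM untreated and at 11.2, 11.04, 9.52, 10.9 and 10.3 FPKM with PLG. The groups lay far apart (log2 fold change 2.43, SE 0.10, limma adjusted p = 1.19e-10; 1.34 with 5 added). Syt11 went from 2.35 ± 0.750 to 6.04 ± 0.566 FPKM (limma adjusted p = 5.00e-06) and Unc13d, the Munc13-4 priming factor of lytic granules, from 8.55 ± 0.857 to 14.2 ± 1.17 FPKM (limma adjusted p = 3.11e-06). Of the SNARE-modulating genes, Rab27a, the small GTPase that docks secretory lysosomes, went from 1.14 ± 0.397 to 4.36 ± 0.779 FPKM (log2 fold change 1.33, limma adjusted p = 1.67e-06). Only untreated 3 and 4 of its untreated samples reached 1 FPKM. It was thus tested because of its PLG samples, and its count as higher is no support. Txlnb went from 0.364 ± 0.383 to 1.61 ± 0.196 FPKM. Its PLG samples alone met the filter, and of its untreated samples only untreated 2 reached 1 FPKM. The count of Txlnb as higher is thus no support either. Txlna fell from 15.4 ± 1.34 to 11.96 ± 0.549 FPKM (limma adjusted p = 5.33e-04), and narrowly missed the threshold with common-sum scaling (0.05005, with 3.65e-05 to 0.05005 over its alternatives). Atg14, at 3.79 ± 0.667 FPKM untreated and 3.60 ± 0.486 FPKM with PLG, missed the threshold. Of the genes that take spent SNARE complexes apart, Napg rose from 6.21 ± 0.509 to 7.79 ± 0.357 FPKM and Nsf fell from 17.0 ± 0.677 to 14.5 ± 0.85 FPKM (limma adjusted p = 0.00194 and 0.00379). Nsf did not pass with common-sum scaling (0.264, with 1.19e-04 to 0.264 over its alternatives). Napa, at 35.8 ± 2.92 FPKM untreated and 32.7 ± 1.85 FPKM with PLG, missed the threshold (limma adjusted p = 0.0894), and passed as lower in 3 alternatives (0.00447 to 0.599).

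Stx11, Stxbp2, Unc13d and Rab27a are among the granule release genes whose loss causes immune disorders with haemophagocytosis in humans. This set was chosen after the values were seen. Stx11, Unc13d and Rab27a were higher with PLG, and Stxbp2 did not pass. Rab27a was tested because of its PLG samples. Of all tested genes 29.1% were higher, and the difference in share was not tested.

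**Figure D4:**
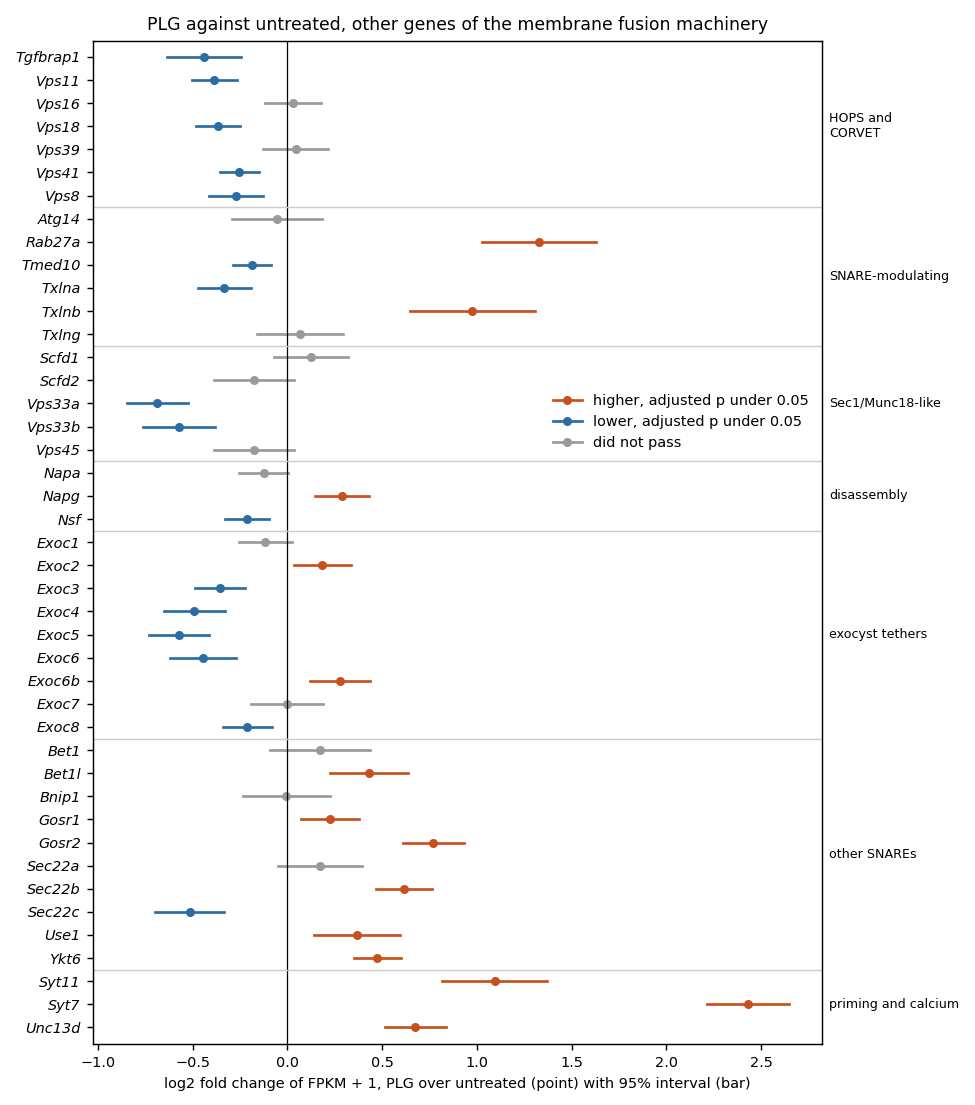
Log2 fold change of FPKM + 1, PLG over untreated, for the 43 tested genes of the wider fusion machinery, as points with 95% intervals as bars, grouped by function. Colours are as for the SNARE genes: orange higher, blue lower, grey did not pass. Syt7, Rab27a and Syt11 lie farthest to the right, the HOPS and CORVET genes hold 5 blue and 0 orange points, and the other SNAREs 6 orange and 1 blue.

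The libraries held 28426106 to 64214559 recovered reads on the listed genes. A pair of repeat-like gene models, Gm10800 and Gm10801, took 0.105% to 4.74% of the reads. Their summed level was lowest in PLG 3, PLG 4 and untreated 2. Without these 3 samples 8 members were higher and 9 lower. Markers of the labelled cell type were present: the 7 macrophage markers summed to 5842 to 7357 FPKM untreated and to 2565 to 2777 FPKM with PLG, with 5 lower and 1 higher, and none was at 0. Most of that sum was Lyz2, at 5792 ± 561 FPKM untreated and 2000.1 ± 77.9 FPKM with PLG. Of 6 dendritic cell markers 4 were higher and 2 lower, with sums of 2416 to 2862 and 2291 to 2700 FPKM, and none was at 0. Most of these sums was Cd74, at 2314 ± 154 FPKM untreated and 1825 ± 135 FPKM with PLG. Itgax fell as well, from 270 ± 14.9 to 156 ± 6.59 FPKM, while Ccr7 rose from 38.1 ± 10.8 to 542 ± 27.1 FPKM. Of the 7 granulocyte markers measured, 3 were tested and 2 were higher, with sums of 8.26 to 11.8 and 12.9 to 22.6 FPKM. Mast cell and basophil markers summed to 7.40 to 17.2 and 8.24 to 11.8 FPKM, and endothelial markers to 5.08 to 6.39 and 4.57 to 6.16 FPKM. Megakaryocyte markers, mostly Pf4, summed to 42.3 to 58.5 and 89.2 to 106 FPKM, and stromal markers, with Pdgfrb tested, to 0.354 to 0.694 and 5.13 to 6.42 FPKM. Flt3 of the dendritic cell, Camp of the granulocyte and Pdgfrb of the stromal markers met the filter only through PLG samples. Their counts as higher are therefore no support. Of all tested genes 29.1% were higher and 31.3% lower, and no difference in share was tested. B cell, T and NK cell and erythroid markers summed to at most 0.720 FPKM. The part of these marker changes in the SNARE results was not tested, and in bulk RNA fewer cells of a type and less RNA per cell cannot be told apart.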

How the data were processed

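RNA of 5 untreated and 5 PLG samples was sequenced as total RNA from a NuGen library kit, per the labels' protocols. The authors deposited FPKM for 16936 protein-coding genes with gene lengths and positions. Per the submitters' processing notes, GRCm38.p6 was the build, and STAR 2.7.3a, featureCounts 2.0.0, cutadapt, FastQC and DESeq2 were used, without stated roles. Not given in the sources used here are the strand setting and how multi-mapped reads were treated. All 35 members have the same coordinates and exon length in GENCODE M21.

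Low values times gene length fell on whole multiples of 1 step per sample. This gave the reads behind each value, with 100.0% of the values tested whole within 0.1 read, and 28426106 to 64214559 reads on the listed genes per sample. FPKM were scaled by totals of 31977248 to 70737088 reads, at which 1 read on 1 kb is 0.0141 to 0.0313 FPKM.

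Values were analysed as log2(FPKM + 1). Genes with at least 1 FPKM in at least 5 of 10 samples were tested for the effect of treatment, with no further term, by limma 3.58.1 under R 4.3.3 with an intensity trend, with adjustment over 9997 genes at 0.05. Fold changes on this scale understate those of low genes. Members under the filter took their p from a fit on all genes. The fit was tested on simulated data. Alternatives were other pseudocounts, filters, scalings and eBayes settings, voom on the reads, a replicate block and leaving out each sample, and 3 settings on the repeat-like models that were added after seeing the data. Promoters are from RefSeq on GRCm38.p6, and 30 of the 35 members had a window.

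The members, gene lists and roles were chosen with earlier results of these data known. Values of 2 members are not reported here, though both count in the totals. Of the wider list, the rule took per group the 3 genes with the smallest adjusted p under 0.05 and the most abundant that did not pass.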

Additional observations from a re-analysis of the deposited data

Results flagged for a closer look

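In 104 groups of 5 samples, the 2 groups of each of 52 genes, 6 held a sample far from the other 4, with a gap of more than 0.71 of the group's range. Chance gives about 1 in 20 groups. Among the members, Stx3 was at 10.384 FPKM in PLG 4, with the other PLG samples at 8.30 to 8.69 FPKM. Vamp2 was at 7.824 FPKM in untreated 4, with the others at 6.39 to 6.80 FPKM, within the range of the PLG samples. Vti1a was at 3.651 FPKM in untreated 5, with the others at 3.18 to 3.31 FPKM. Stx16 was at 16.059 FPKM in untreated 2, with the others at 11.5 to 12.3 FPKM. In the wider list, Rab27a was at 2.975 FPKM in PLG 2, with the others at 4.62 to 4.79 FPKM, and Txlnb at 1.02 FPKM in untreated 2, with the others at 0.074 to 0.314 FPKM.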

How the results depend on the processing

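Over 24 alternatives, 13 of the 21 called members passed in every alternative that tested them, and none of the 21 changed direction. The 8 that missed the threshold somewhere were Snap23, Snap47, Stx5a, Stx8, Stx12, Vamp1, Vamp2 and Vamp4. With scaling to a common sum 7 members were higher and 7 lower, and 10 genes of the wider list were lower. That sum includes the repeat-like models. With a filter of 5 FPKM, which tests fewer genes, 7 members were higher. Leaving out each sample left 9 to 11 members higher and 10 to 11 lower. With the replicate block 11 members were higher and 10 lower. Same-numbered samples correlated at -0.12 to 0.10 in their deviations, and 1 of 5 samples correlated best with its own number. The labels name no pairing, and these correlations cannot tell whether same-numbered samples share an origin. Values that turned sign were all of genes that did not pass. Common-sum and median-of-ratios scaling gave 0.022 and 0.021 for Stx18, 0.011 and 0.0040 for Stx4a, and 0.042 and 0.035 for Exoc7. Quantile normalization gave -0.075 for Vti1b and -0.027 for Vps16, voom -0.020 for Vti1b, and a pseudocount of 5 gave 0.00030 for Exoc7. Removal of the repeat-like models together with scaling to a common sum gave -0.047 for Vti1b and -0.018 for Vps16. Without the 3 samples lowest in them the values were 0.13 for Stx18, -0.081 for Vti1b, -0.0057 for Vps16 and 0.038 for Exoc7. With their level as a covariate they were -0.13 for Vti1b and 0.0079 for Exoc7. Leaving out 1 sample gave -0.065 to 0.083 for Vti1b, -0.061 to 0.063 for Stx18, -0.013 to 0.060 for Vps16 and -0.055 to 0.058 for Exoc7. The causes were not tested. Each group had 5 samples, which limits small changes such as those of Stx6 and Stxbp2.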
